A study of Mus musculus with 9 samples.

Results

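C2C12 is an established mouse myoblast line whose cells leave the cell cycle, fuse and build contractile myotubes once serum is lowered. The second stage of that process is described here: gene expression on day 5 against day 3 of differentiation, with each day 5 library set against the day 3 library of the same genotype. The comparison uses 6 of the 9 RNA-seq libraries of the study, 3 per day, and the 3 day 0 libraries serve only to class what each gene had done before day 3. The genotypes were WT (C2C12 carrying a non-target sgRNA), Per1KO and Per2KO (C2C12 edited with CRISPR-Cas9 at Per1 or Per2, a pair of genes for repressors of the circadian clock). All 3 genotypes were grown in 10% fetal bovine serum, and differentiation took place in 5% horse serum. Each genotype had 1 library per day, so a genotype has no replicate of its own, and the test over days treats the 3 genotypes as the replicates. Whether each knockout line was 1 clone is not given in the sources used here.

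During myogenesis MyoD-family factors and their MEF2 partners switch on muscle genes, while the retinoblastoma-family proteins and the CDK inhibitor p21 shut down the genes of DNA replication and mitosis. Sarcomere assembly follows: titin and nebulin set the filament lengths, embryonic myosin isoforms come before the adult ones, and the calcium release units of the sarcoplasmic reticulum are built late. In C2C12 cultures part of the cells do not fuse and stay behind as quiescent reserve cells, so a culture on day 5 is a mixture.

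The WT libraries held 5020385 to 5771983 counts on days 3 and 5 and the knockout libraries 41997763 to 48051824, and the WT titles also carry a lane tag that the knockout titles lack. WT genotype, depth and lane therefore cannot be told apart. A gene with 3 counts had 0.547 CPM (counts per 1000000 counts) in WT on day 3 and 0.659 CPM on day 5, against 0.0620 to 0.0730 CPM in the knockouts. The labels name the tissue as whole muscle. The 7 muscle markers summed to 8802 to 19167 CPM on day 3 and 12671 to 20278 CPM on day 5, and 6 of the 7 markers of blood, vessel and nerve cells were below 1 CPM in all 6 libraries. The 5 defining fibroblast markers differed between genotypes, mostly through Dpt. Summed they reached 115 CPM on day 3 and 198 CPM on day 5 in WT, against 12.2 to 16.9 CPM in the knockout libraries of both days. Dpt, Pi16 and Pdgfra were higher in WT. Tcf21 was at 0 in all 6, and Dpp4 was at 0 in WT and at 0.062 to 0.195 CPM in the knockouts. Over the longer list of 12 fibroblast genes the sums lay close together, at 1909 and 1819 CPM on the respective days in WT, 1730 and 1735 in Per1KO and 1794 and 1966 in Per2KO. The 4 defining reserve-cell markers summed to 212 and 244 CPM in WT and to 37.5 to 46.5 CPM in the knockouts, with Cd34 and Heyl the most abundant in WT on day 3. The longer list of 21 reserve-cell genes differed less, with 1053 and 1115 CPM in WT, 935 and 766 in Per1KO and 920 and 792 in Per2KO. WT also stood apart before differentiation, with myogenin (Myog) at 124 CPM on day 0 against 5.35 in Per1KO and 2.91 in Per2KO. The messages of the edited genes do not test the editing, because a small insertion or deletion can leave the transcript level as it was. Per1 was at 32.4 and 28.9 CPM on days 3 and 5 in Per1KO and at 33.7 and 30.96 CPM in WT, and Per2 was at 9.11 and 8.37 CPM in Per2KO and at 11.5 and 20.4 CPM in WT.

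The test over the 3 genotypes called few genes between day 3 and day 5. It had 2 residual degrees of freedom, so a gene that was not called is not shown to be unchanged. The DESeq2 Wald test on the same 6 libraries called 1294 genes higher and 1192 lower. Of 12920 genes tested with edgeR's quasi-likelihood test, 560 were called at an adjusted p under 0.05 (4.33%): 303 were higher on day 5 (2.35%) and 257 lower (1.99%). Of these, 143 rose and 137 fell by at least 2-fold. The direction was the same in all 3 pairs for 557 of the 560. Ccl9, Mmp3 and Cyp2f2, chosen after their values were seen, were the exceptions, and in WT Mmp3 and Cyp2f2 had 0 counts on both days. Disagreement between the pairs is the spread of this test, so called genes tend to share a direction. Their agreement is therefore not a separate result about the genotypes. Among all tested genes 24.1% were higher and 23.7% lower on day 5 in all 3 pairs, and the median log2 change was 0.0021. The count of calls moved with the pairs and the model used. Without the WT pair the same test called 2608 genes higher and 2594 lower, without the Per1KO pair 126 and 104, and without the Per2KO pair 141 and 116. A fit that ignored genotype called none (638 higher and 705 lower at an unadjusted p under 0.05).

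Sarcomere genes were among the largest rises, and most of the largest falls were on the list of mitosis genes. The genes with the largest rise by a fixed rule (called, the same direction in 3 pairs, a mean of at least 10 CPM, protein-coding and little shared sequence) included Myl2, 3425401B19Rik, Fxyd6, Tcap, Mybpc1, Mybpc2, Cd36, Extl1, Casq1, Fbxo40 and Postn. The 12 with the largest fall were Ccnb2, Bub1b, Hmmr, Bub1, Kif20a, Cenpa, Nuf2, Cdca3, Pttg1, Kif2c, Birc5 and Ckap2l. Myl2, Tcap, Mybpc1 and Mybpc2 are on the sarcomere and Z-disc lists and Casq1 is on the calcium list, and 9 of the 12 falls are on the mitosis list.

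**Figure D1:**
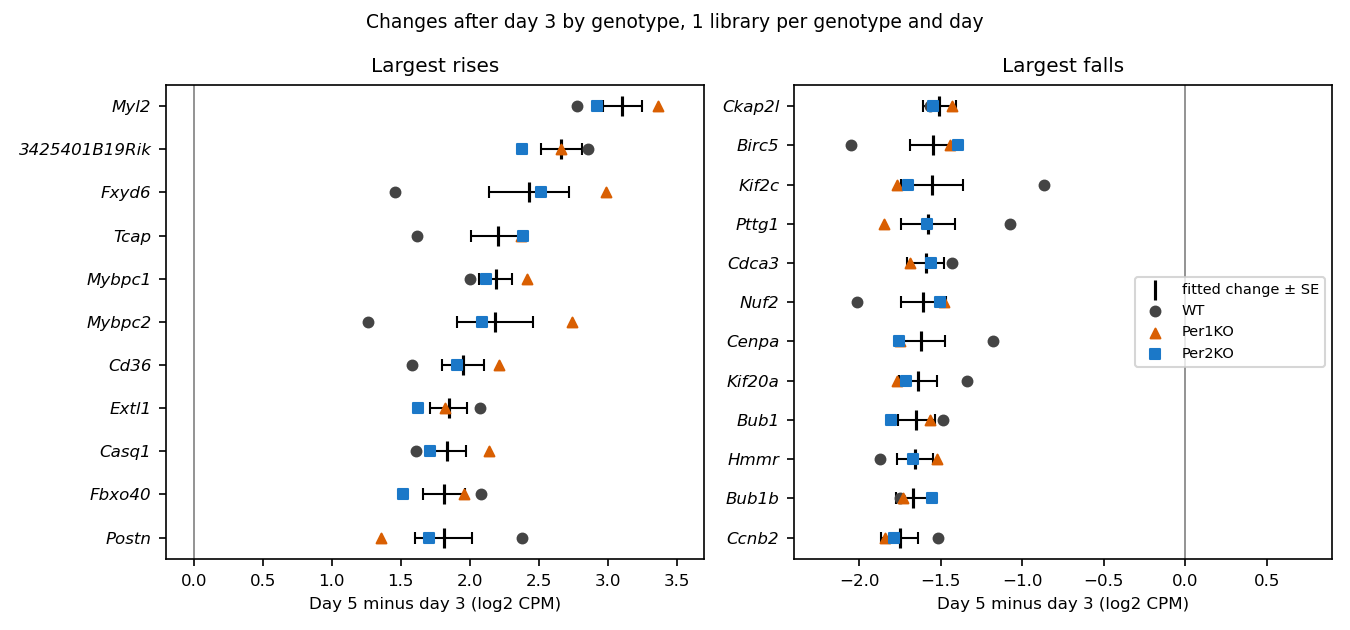
Change from day 3 to day 5 (x axis, log2 CPM) of 11 of the genes with the largest rise (left) and the 12 with the largest fall (right), with 1 point per genotype and the fitted change with its standard error as a bar. Myl2 has the largest fitted rise, 3.11, and Ccnb2 the largest fitted fall, -1.75; Fxyd6 and Mybpc2 rise less in WT than in the knockouts, and Kif2c, Pttg1 and Cenpa fall less in WT.

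Myl2, the regulatory light chain of slow and cardiac myosin (chr5:122100951-122113472 on GRCm38), was at 2.73 CPM in WT, 23.1 in Per1KO and 20.9 in Per2KO on day 3, and by day 5 it had reached 19.1, 239 and 159 CPM. It had 0 counts on day 0 in all 3 genotypes, and WT on day 5 stayed below both knockouts on day 3. The rise was 8.62-fold (log2 3.11 ± 0.14 SE, adjusted p = 0.0109), and the WT values rest on 15 and 87 counts. Tcap, which caps titin at the Z-disc, rose from 8.74 to 27.0 CPM in WT, from 2.89 to 15.3 in Per1KO and from 1.57 to 8.49 in Per2KO (4.61-fold, adjusted p = 0.0111). Here WT was the highest of the 3 on both days, the reverse of the order for Myl2. Mybpc1, the slow myosin-binding protein C, went from 43.7 to 175 CPM in WT, from 8.04 to 43.1 in Per1KO and from 7.50 to 32.8 in Per2KO (4.56-fold). Its fast relative Mybpc2 went from 7.65 to 18.4 CPM in WT, from 4.57 to 30.96 in Per1KO and from 4.11 to 17.7 in Per2KO (4.54-fold). Casq1, the calcium-binding protein of the fast-fibre sarcoplasmic reticulum, went from 30.8 to 94.2, from 19.3 to 85.2 and from 14.8 to 48.6 CPM in the same order (3.58-fold). The lowest day 5 level of Casq1 was above the highest day 3 level, as for 9.38% of tested genes.

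Adult sarcomere genes as a group were higher on day 5, with 9 of 19 tested members called higher and none lower against 2.35% and 1.99% of all genes, and a median change of 0.88 against 0.0021. Members that rose included Myh4, the fastest adult myosin (log2 2.31 ± 0.18), Myoz1, a Z-disc protein of fast fibres (1.44), Myh7, the slow myosin (1.66), and Tnnt1, slow troponin T (1.03). The rises thus took in isoforms of both slow and fast fibres. Myh4 went from 37.0 to 127 CPM in WT, from 20.7 to 130 in Per1KO and from 15.1 to 81.7 in Per2KO. Its neighbours Myh1 and Myh2, the other fast adult myosins, did not pass (adjusted p = 0.063 and 0.102): Myh1 went from 91.8 to 497, from 135 to 311 and from 93.2 to 173 CPM in the same order. The myosin genes share sequence, with 30.4% of the 31-base words of Myh4, 39.7% of Myh1 and 38.5% of Myh2 found in other genes, so their separate counts are uncertain. Without the Per1KO or the Per2KO pair 6 of the 19 members were called higher, and without WT all 19.

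Developmental isoforms behaved less evenly. Of 14 tested members 3 rose (Mybpc1, Myom3 and Myl4), Tpm4, a tropomyosin of non-muscle and embryonic cells, fell, and 10 did not pass. Embryonic myosin Myh3 was at 4843 CPM in WT, 2356 in Per1KO and 2233 in Per2KO on day 3, and day 5 gave 7203, 3211 and 2420 CPM (1.30-fold, adjusted p = 0.205). Its level was higher on day 5 in each pair by 1.49-, 1.36- and 1.08-fold. Perinatal Myh8 went from 35.2 to 173 CPM in WT, from 26.9 to 50.8 in Per1KO and from 16.4 to 32.7 in Per2KO (adjusted p = 0.0652). The atrial light chain Myl4 went from 1274 to 2032, from 791 to 1842 and from 710 to 1448 CPM (1.97-fold, adjusted p = 0.0315), a call that was lost without either knockout pair (adjusted p = 0.115 and 0.112). Tpm4 fell by 0.79 on the log2 scale, from 619 to 356 CPM in WT, from 551 to 318 in Per1KO and from 565 to 331 in Per2KO.

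Genes of titin and the Z-disc gave the highest share of rises among the muscle lists, 14 of 24 with none lower and a median of 0.84. Titin itself, Ttn (chr2:76703980-76982547), was at 538 CPM in WT, 806 in Per1KO and 898 in Per2KO on day 3 and reached 1020, 1447 and 1687 CPM. The 3 ratios were 1.90, 1.79 and 1.88, and WT on day 5 lay above all 3 day 3 values. The fitted change was 0.89 ± 0.10 (adjusted p = 0.0184; 0.0656 without Per1KO and 0.0989 without Per2KO). Nebulin (Neb, 1.44), the titin partner Mypn (1.26) and the actin-filament proteins Lmod2 (1.01) and Lmod3 (0.85) also rose. Of the members that did not pass, Pdlim3 had a change of -0.07, Ankrd2 of 0.17 and desmin (Des) of 0.30. Without Per1KO 8 of the 24 were called higher, without Per2KO 10 and without WT 23.

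Excitation and calcium handling also went up, with 10 of 25 members higher, none lower and a median of 0.57. The calls were the release channels Ryr1 (1.43) and Ryr3 (0.85), the voltage sensor subunits Cacna1s (0.91) and Cacnb1 (0.93), the junctional proteins Trdn (1.64) and Jph1 (0.76), Casq1, the pumps Atp2a1 (1.41) and Atp2a2 (0.92), and the muscle sodium channel Scn4a (1.30). The rises therefore covered the channel, its trigger, the store and the pump. Atp2a2 went from 906 to 1381 CPM in WT, from 1025 to 2454 in Per1KO and from 1065 to 1981 in Per2KO. Every day 5 value was above every day 3 value, but the call was lost without Per1KO or Per2KO (adjusted p = 0.168 and 0.124). Stac3 (0.05), Asph (-0.07) and the pump inhibitor Mrln (-0.45) did not pass.

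The nerve-muscle junction list had 2 of 11 members higher (18.2% against 2.35% of all genes): Chrng, the fetal acetylcholine receptor subunit, and Lrp4, the agrin receptor. No member of the list was called higher without Per1KO or without Per2KO. Chrng went from 495 to 806 CPM in WT, from 208 to 371 in Per1KO and from 189 to 301 in Per2KO (1.66-fold). The adhesion and fusion list had 3 of 23 higher: caveolin 3 (Cav3, 1.49), the membrane repair protein dysferlin (Dysf, 0.64) and Tmem182 (0.99). The fusogen Mymk was at 1285 CPM in WT, 618 in Per1KO and 549 in Per2KO on day 3, then 1197, 1075 and 897 CPM (adjusted p = 0.24). On the log2 scale WT changed by -0.10 and the knockouts by 0.80 and 0.71.

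Among 16 transcription factors of the muscle lineage 1 was called, and it was higher (6.25% against 2.35% of all genes). Mef2c, a MEF2 factor that binds the promoters of contractile genes, went from 132 to 375 CPM in WT, from 113 to 269 in Per1KO and from 105 to 193 in Per2KO (2.31-fold, log2 1.21 ± 0.14, adjusted p = 0.0184). The day groups did not overlap, and the call held without each pair. Myog (chr1:134289989-134292548) went from 866 to 1059 CPM in WT, from 261 to 351 in Per1KO and from 226 to 270 in Per2KO (1.25-fold, adjusted p = 0.132). Myod1 stood at 164 CPM on both days in WT and went from 118 to 137 in Per1KO and from 123 to 145 in Per2KO (1.11-fold, adjusted p = 0.382). Myf6, a factor of mature fibres, was below the testing limit, with 0.729 then 3.29 CPM in WT, 0.186 then 0.408 in Per1KO and 0.351 then 0.268 in Per2KO.

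The rises in energy metabolism included muscle isoforms. On the glycolysis list 3 of 23 members were higher, the glycogen phosphorylase Pygm (1.10), the phosphofructokinase Pfkm (0.93) and hexokinase Hk2 (0.61), and none was called lower. On the oxidative list 3 of 28 were called higher (10.7%), and the median was 0.13. They were the fatty acid transporter Cd36 (1.95) and the muscle cytochrome oxidase subunits Cox8b (0.93) and Cox6a2 (0.90). Cd36 went from 11.8 to 35.6 CPM in WT, from 8.52 to 39.8 in Per1KO and from 6.94 to 26.2 in Per2KO, with no overlap between days. Muscle creatine kinase Ckm went from 254 to 276 CPM in WT, from 151 to 434 in Per1KO and from 140 to 331 in Per2KO (adjusted p = 0.12). An antisense gene overlaps Ckm, as one does Myl2, Mybpc1, Mybpc2, Casq1, Ttn, Myl4, Tpm4, Atp2a2, Cacna1s, Cacnb1, Jph1, Myh1, Myh2, Myh7, Elovl6, Aldh1l2, Nmrk2 and Cdkn1a. The strand used in counting is not given in the sources used here, so reads of such a pair cannot be told apart. The 13 messages of the mitochondrial genome were higher on day 5 in all 3 pairs (median 0.42). None of them was called by edgeR, although 10 were higher at an unadjusted p under 0.05 and DESeq2 called 8 higher.

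Genes of mitosis fell further after day 3 in every genotype. All 34 tested members of the list were lower in all 3 pairs and all 34 were called lower, against 1.99% of all genes, with a median of -1.36. The medians were -1.24 in WT, -1.33 in Per1KO and -1.41 in Per2KO, and for all 34 the highest day 5 level was below the lowest day 3 level (10.4% of all tested genes). Summed, the list went from 4298 to 1385 to 573 CPM on days 0, 3 and 5 in WT, from 6214 to 2055 to 834 in Per1KO and from 4949 to 2114 to 864 in Per2KO. In these bulk libraries fewer dividing cells and less RNA per cell cannot be told apart. Leaving out WT, Per1KO or Per2KO left 34, 33 and 31 members called.

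Ccnb2, a B-type cyclin that drives entry into mitosis (chr9:70407692-70421547), was at 34.1 CPM in WT, 42.4 in Per1KO and 40.2 in Per2KO on day 3 and dropped to 11.9, 11.8 and 11.6 CPM. The 3 genotypes ended at nearly the same level. The fall was 3.37-fold (adjusted p = 0.0109). Bub1b, a spindle checkpoint kinase, went from 33.3 to 9.88, from 47.3 to 14.2 and from 47.2 to 16.0 CPM (3.18-fold). Top2a, the topoisomerase of dividing cells, went from 146 to 56.2 CPM in WT, from 220 to 95.1 in Per1KO and from 232 to 102 in Per2KO (2.38-fold). The proliferation marker Mki67 went from 68.9 to 32.7, from 133 to 45.3 and from 138 to 50.3 CPM (2.61-fold). The smallest fall of the list was in Cdc25b, a phosphatase that activates CDK1 (-0.57).

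The promoters of these genes were compared by sequence, because many mitotic genes carry a cell cycle homology region, TTTGAA, close to the start, where the DREAM complex binds. The motif was searched on both strands in the RefSeq promoters (GRCm38.p6, 250 bases before to 50 after the start). It was in 7 of the 11 matched promoters of the largest falls, and in 48.7% of the 115 promoters of genes that fell by day 3 and kept falling, against 17.9% of all 32851 promoters. In the 185 promoters of genes that kept rising it was in 13.5%. An E2F site, TTTCGCGC, was in 5.22% of the promoters of genes that kept falling and in 0.323% of all. The stretches below are shown because they hold the motif (capitals) within 30 bases before or 30 after the start in 3 of the genes with the largest falls. Each runs from 70 bases before to 30 after the start.
Ccnb2, chr9:70421525-70421624, minus strand: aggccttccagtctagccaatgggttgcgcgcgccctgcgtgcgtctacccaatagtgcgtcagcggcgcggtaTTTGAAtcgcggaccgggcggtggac
Hmmr, chr11:40733408-40733507, minus strand: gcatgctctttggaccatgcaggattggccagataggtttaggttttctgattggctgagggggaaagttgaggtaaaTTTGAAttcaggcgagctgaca
Ckap2l, chr2:129297183-129297282, minus strand: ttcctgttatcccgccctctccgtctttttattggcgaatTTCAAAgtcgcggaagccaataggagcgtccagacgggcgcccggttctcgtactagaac
The motif began at base 5 after the start in Ccnb2 and at base 9 in Hmmr, and 30 bases before the start, read on the other strand, in Ckap2l.

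Promoters of rising genes held a different motif more often. The E-box CAGCTG, a form bound by MyoD and myogenin, was in 27.0% of the promoters of genes that kept rising, in 13.9% of those that kept falling and in 16.3% of all. CACCTG, the other E-box searched, was in 24.3%, 11.3% and 20.2% in the same order. The MEF2 site TATTTATA was in 5.41% of the promoters of genes that kept rising, in none of the 115 that kept falling and in 1.70% of all. The stretches of 110 bases before the start shown here come from 3 of the genes with the largest rises, with the E-boxes in capitals.
Fbxo40, chr16:36990468-36990577, minus strand: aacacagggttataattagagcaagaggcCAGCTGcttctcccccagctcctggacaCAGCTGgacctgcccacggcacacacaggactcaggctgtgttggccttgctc
Mybpc1, chr10:88605153-88605262, minus strand: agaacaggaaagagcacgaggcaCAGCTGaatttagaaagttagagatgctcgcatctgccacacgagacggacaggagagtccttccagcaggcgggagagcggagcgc
Casq1, chr1:172219896-172220005, minus strand: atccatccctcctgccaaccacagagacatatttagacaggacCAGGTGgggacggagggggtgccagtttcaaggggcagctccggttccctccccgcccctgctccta
Fbxo40, a ubiquitin ligase of muscle, holds CAGCTG at 81 and 53 bases before the start, Mybpc1 at 87, and Casq1 holds CACCTG, read on the other strand, at 67. A match is a description of the letters and not of binding.

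Genes of DNA replication also fell in all 3 genotypes, but by unequal amounts. Of 33 tested members 31 were lower in all 3 pairs, and 27 had every day 5 level below every day 3 level. The median was -1.66 in WT against -0.58 in Per1KO and -0.62 in Per2KO, and WT fell more than both knockouts in 31 of the 33. With that spread between genotypes 1 member, the polymerase subunit Pole (-0.85), was called lower over the 3 pairs, and 30 were called without WT. Mcm3, a subunit of the replicative helicase (chr1:20802968-20820312), was at 54.8 CPM in WT and 42.4 in both knockouts on day 3, and then at 8.12 CPM in WT, 30.5 in Per1KO and 27.5 in Per2KO. WT had the highest level on day 3 and the lowest on day 5. Mcm5 went from 45.2 to 5.93, from 34.0 to 17.1 and from 30.9 to 18.4 CPM in WT, Per1KO and Per2KO. The pocket protein gene Rbl1 went from 29.7 to 8.78, from 26.7 to 18.9 and from 28.6 to 18.2 CPM. Its relative Rbl2, typical of resting cells, went from 61.2 to 64.1, from 65.8 to 77.1 and from 66.1 to 72.9 CPM (adjusted p = 0.373).

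**Figure D2:**
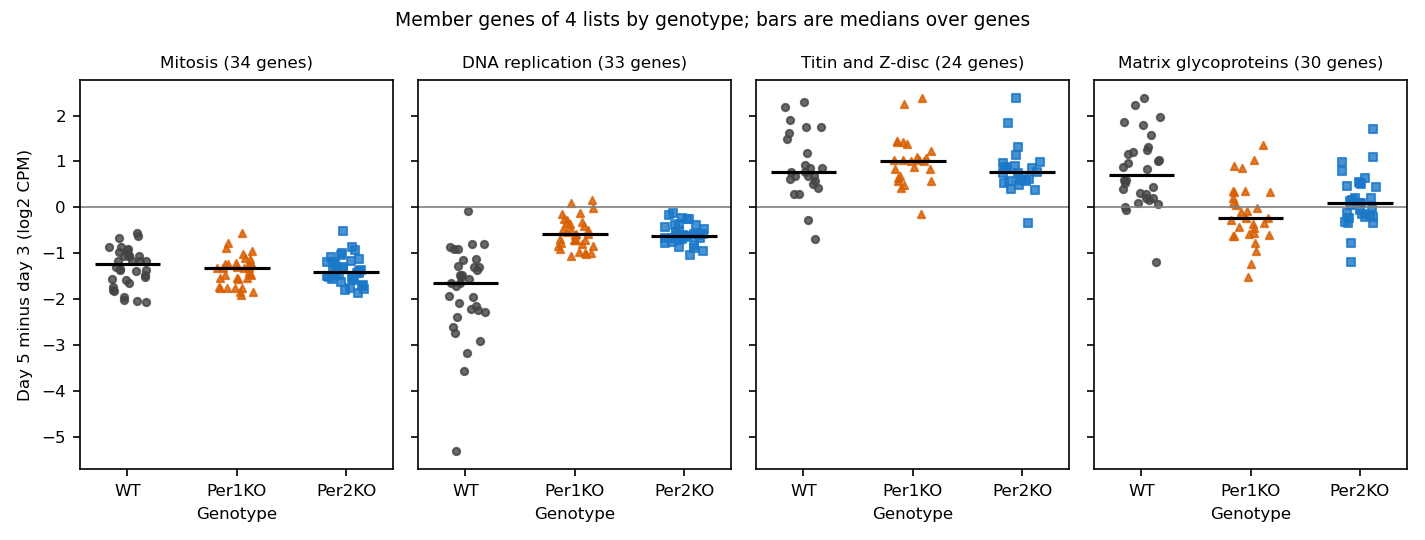
Change from day 3 to day 5 (y axis, log2 CPM) of each tested member of 4 gene lists, 1 point per gene, by genotype (x axis), with the median over genes as a bar. The mitosis medians lie between -1.41 and -1.24 in the 3 genotypes, whereas DNA replication has a median of -1.66 in WT against -0.58 and -0.62 in the knockouts, and matrix glycoproteins lie at 0.71 in WT against -0.23 and 0.09.

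Sterol and fatty acid synthesis was the other list with many falls: 13 of 32 members were lower, 1 was higher, and the median was -0.51 (-0.50 in WT, -0.55 in Per1KO and -0.42 in Per2KO). Among the members that fell were Hmgcs1 (-0.71), Fdps (-0.81) and Sqle (-0.52), enzymes of cholesterol synthesis, and the fatty acid elongase Elovl6 (-0.99, adjusted p = 0.0182). Elovl6 went from 38.3 to 23.1 CPM in WT, from 51.5 to 24.3 in Per1KO and from 53.4 to 25.3 in Per2KO. The member that rose was Abca1, which exports cholesterol, from 4.55 to 19.3 CPM in WT, from 1.14 to 2.69 in Per1KO and from 1.24 to 2.67 in Per2KO (adjusted p = 0.0374). Without WT 27 members were called lower, without Per1KO 2 and without Per2KO 2.

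The stress, Notch, BMP and TGF-beta, Wnt and cytokine lists had 1 to 4 calls each. Of 31 members of the integrated stress response list 4 rose (12.9% against 2.35% of all genes): Mthfd2 (0.98) and asparagine synthetase Asns (0.91), both enzymes of amino acid and one-carbon metabolism, Atf3 (0.80), and Herpud1 (0.58), a factor of protein disposal at the endoplasmic reticulum. Mthfd2 went from 184 to 384 CPM in WT, from 52.5 to 105 in Per1KO and from 48.6 to 89.8 in Per2KO. On the Notch list the receptor Notch3 (-0.75) and the ligand Jag2 (-0.62) fell, 2 of 12 (16.7% against 1.99% of all genes). The target Hey1 went from 23.5 to 3.51, from 24.9 to 13.5 and from 28.4 to 14.6 CPM (adjusted p = 0.0896). On the BMP and TGF-beta list Ccn1 (1.13) and Ccn2 (1.25), secreted matricellular proteins, rose, 2 of 23 (8.70% against 2.35% of all genes). Wnt9a rose (0.80), 1 of 19 on the Wnt list (5.26%). On the list of chemokines and cytokines 2 of 16 rose (12.5%), Il15 (1.21) and Ccl8 (0.81), and Ccl9 was called lower (-1.87), with WT in the opposite direction.

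The clock list had no member called by edgeR among 22, with changes from -0.42 (Rorb) to 0.64 (Rora) and a median of 0.09. At an unadjusted p under 0.05 it had 3 higher and 1 lower, DESeq2 called 2 higher, and without WT edgeR called 6 higher and 3 lower. The interferon list had none of 21 (5 higher at an unadjusted p under 0.05, 1 called higher by DESeq2) and the cell cycle exit list none of 17 (6 lower at an unadjusted p under 0.05, 5 called lower by DESeq2). The CDK inhibitor p21, Cdkn1a, went from 1799 to 1788 CPM in WT, from 1025 to 1506 in Per1KO and from 938 to 1292 in Per2KO (adjusted p = 0.254). Every day 5 value of the knockouts was above their day 3 values and below both WT values. Igf2 went from 435 to 386, from 63.8 to 67.9 and from 58.0 to 62.6 CPM (adjusted p = 0.967), although 76.0% of its 31-base words are shared with other genes. Over the knockouts alone the test called 5 myogenic factors higher and 6 lower, and 16 stress response members higher and 3 lower.

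**Figure D3:**
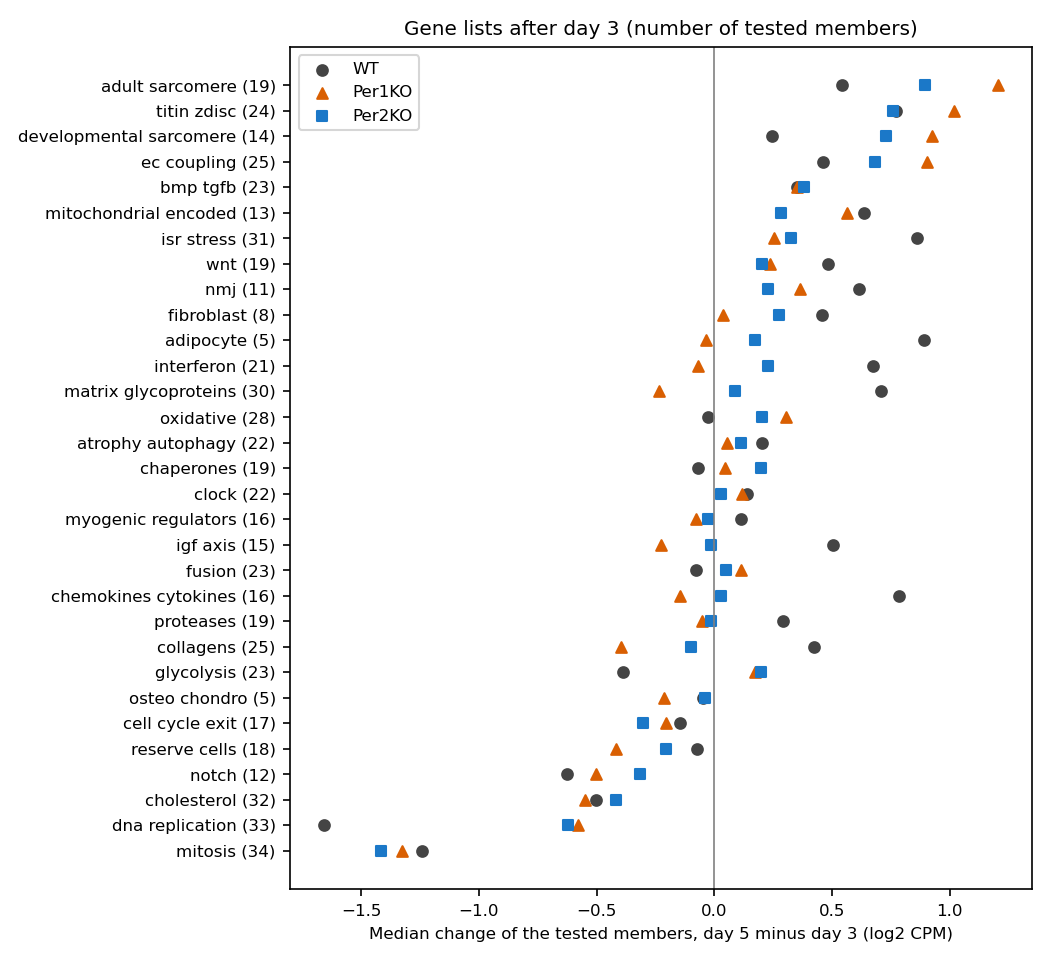
Median change from day 3 to day 5 (x axis, log2 CPM) over the tested members of each gene list (y axis, number of members in brackets), with 1 point per genotype. The mitosis medians lie between -1.41 and -1.24 in the 3 genotypes, the sarcomere, Z-disc and calcium lists lie highest in both knockouts, and WT lies apart from both knockouts for DNA replication, matrix glycoproteins and collagens.

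Of the genes that had changed before day 3, the largest group did not do the same in all 3 genotypes, and few reversed in all 3. A gene was classed when it rose or fell by at least 2-fold from day 0 to day 3 in all 3 genotypes. It was said to go on when it moved a further 1.5-fold the same way in all 3, to hold when it moved less than 1.5-fold in all 3, and to reverse when it moved 1.5-fold back in all 3. Both steps share the day 3 libraries, so an error in a day 3 value moves both, in opposite directions. Of 719 genes that rose, 173 kept rising, 161 held, 3 reversed and 382 did not do the same in all 3 genotypes. Of 408 that fell, 136 kept falling, 78 held, 3 reversed and 191 were mixed. The counts depend on the step: with 2-fold in place of 1.5-fold, 53 kept rising and 374 held, and 56 kept falling and 158 held.

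By list, 28 of 34 mitosis members kept falling and none held, against 136 of all 13324 genes that kept falling. Of the others, 1 was mixed and 5 had not fallen 2-fold by day 3 in all 3 genotypes. Of the 33 replication members 10 kept falling, none held, 4 were mixed and 19 had not fallen 2-fold by day 3 in all 3. On the muscle lists, 14 of 24 titin and Z-disc genes, 9 of 19 adult sarcomere genes and 9 of 25 calcium and excitation genes kept rising. Of all 13324 genes 173 did. In the same order 5, 1 and 6 members had not changed 2-fold by day 3 in all 3 genotypes. By mean level, the genes that led those that kept rising were Ttn, Atp2a2 and Myl4. The leading genes that kept falling were Top2a, the cytokinesis scaffold Anln and the growth factor binder Igfbp2. Anln went from 116 to 44.8 CPM in WT, from 160 to 68.5 in Per1KO and from 165 to 70.7 in Per2KO. Igfbp2 went from 561 to 196, from 544 to 285 and from 505 to 307 CPM.

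Rises that held were led by Sparc, Cdkn1a and the taurine transporter Slc6a6. Sparc, a collagen-binding matrix protein, went from 2217 to 6581 CPM between day 0 and day 3 in WT, from 1200 to 3659 in Per1KO and from 1205 to 3324 in Per2KO, and then stood at 7576, 3383 and 3631 CPM on day 5. Its change after day 3 was 1.15-, 0.925- and 1.09-fold. Myog, classed here too, rose from 124 to 866 CPM in WT before day 3 and was at 1059 CPM on day 5. Falls that held were led by Ezr, which links membrane and actin, with 429, 166 and 142 CPM on days 0, 3 and 5 in WT, 400, 186 and 177 in Per1KO and 401, 176 and 181 in Per2KO.

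Full reversals were few and mostly of low level. The 3 rises that reversed were Inka2, Tmem88b and Rspo3. Inka2 (chr3:105704599-105720842), a kinase inhibitor gene, was at 13.8, 29.5 and 15.6 CPM on days 0, 3 and 5 in WT, at 6.07, 29.0 and 17.3 in Per1KO and at 5.35, 27.8 and 18.2 in Per2KO (adjusted p = 0.0305 for day 5 against day 3; 0.149 without Per1KO and 0.102 without Per2KO). On day 3 the 3 genotypes were at nearly the same level, and on day 5 Inka2 was close to its starting level in WT but above it in the knockouts. Tmem88b went from 5.28 to 2.42, from 4.61 to 2.30 and from 4.51 to 2.92 CPM after day 3 (adjusted p = 0.0585). Rspo3 in WT had 2 counts on day 3 and 0 on days 0 and 5, so its class in WT rests on counting error. The 3 falls that reversed were Aldh1l2, Adgrg3 and Adora2a. Aldh1l2, a mitochondrial folate enzyme, was at 208, 103 and 381 CPM in WT, at 282, 25.8 and 41.4 in Per1KO and at 708, 23.4 and 43.8 in Per2KO (adjusted p = 0.0666), so WT ended above its day 0 level and the knockouts well below theirs. With both knockouts alone, 30 rises and 24 falls reversed.

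A further set moved after day 3 without a 2-fold change before it in any genotype: 31 genes rose late, 21 of them called higher, and 33 fell late, 24 of them called lower. Ccn1 led the rises, from 184 to 438 CPM in WT, from 221 to 422 in Per1KO and from 208 to 479 in Per2KO (2.19-fold, adjusted p = 0.0129). Deptor, an inhibitor of mTOR, followed with 209 to 418, 156 to 320 and 163 to 281 CPM (1.92-fold). Ly6e and the hyaluronan receptor Cd44 led the falls. Cd44 went from 1054 to 463 CPM in WT, from 1098 to 637 in Per1KO and from 1162 to 709 in Per2KO (1.86-fold, adjusted p = 0.0324; 0.0618 without Per1KO and 0.0596 without Per2KO).

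**Figure D4:**
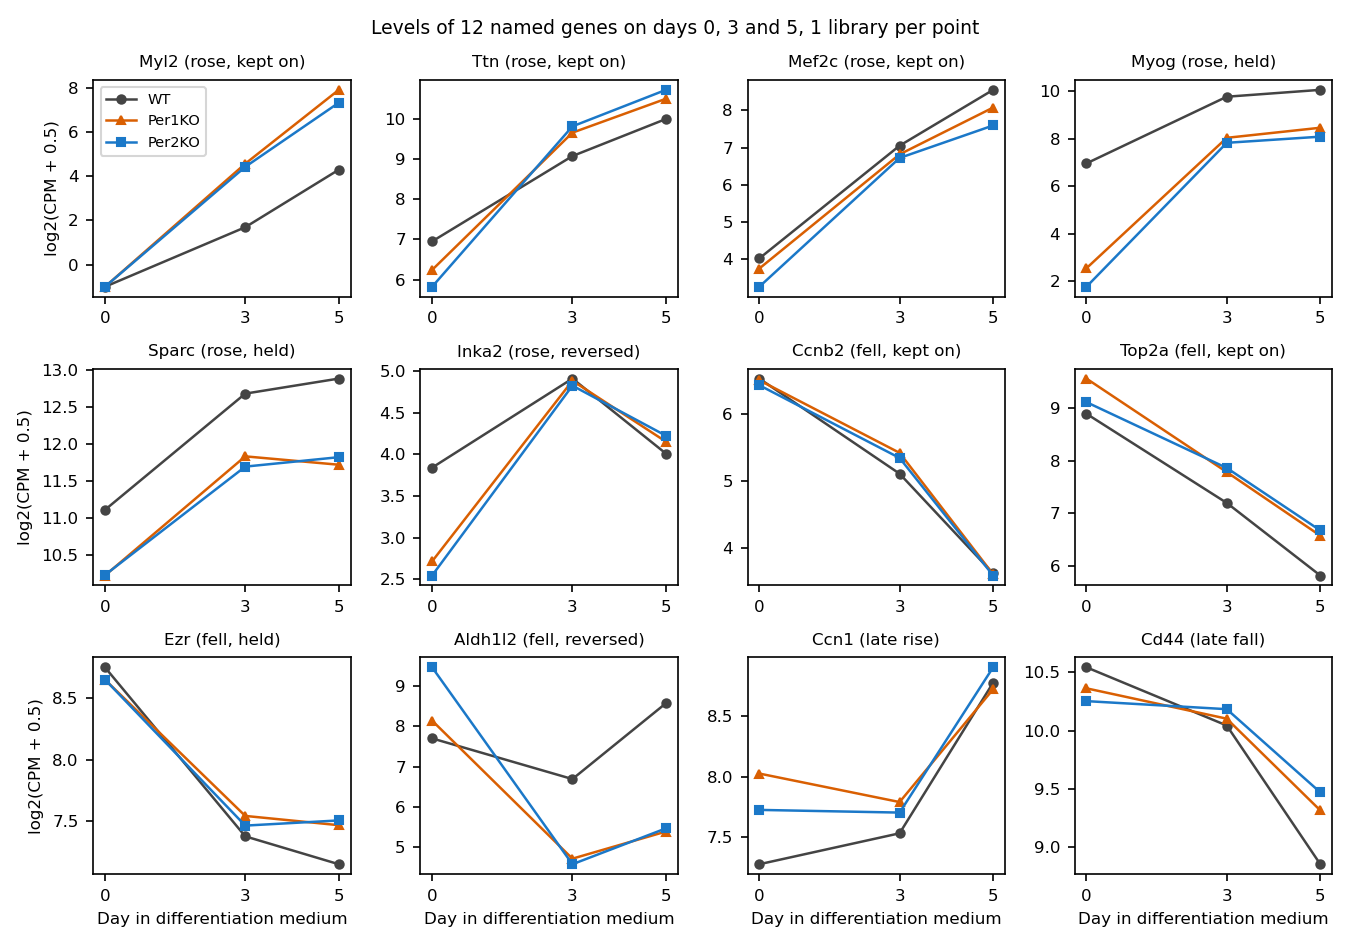
Level of 12 named genes, log2(CPM + 0.5) on the y axis, on days 0, 3 and 5 (x axis), with 1 line per genotype and 1 library per point. Myl2, Ttn and Mef2c rise over both steps, Myog and Sparc flatten, Inka2 turns down, Ccnb2 and Top2a fall over both steps, Ezr flattens, Aldh1l2 turns up most in WT, and Ccn1 and Cd44 move after day 3.

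The knockouts changed alike after day 3, and WT changed less like either of them. The number of genes that changed by at least 2-fold was 1279 of 12573 (10.2%) in the WT pair, 521 of 12875 (4.05%) in Per1KO and 371 of 12877 (2.88%) in Per2KO. Where the mean reached 10 CPM or more it was 260 higher and 280 lower in WT, 154 and 107 in Per1KO, and 84 and 86 in Per2KO. In all 3 pairs 70 genes rose and 73 fell by at least 2-fold. Each of these 143 was called, but the test scores the same changes by which they were picked. In opposite directions, 13 genes rose 2-fold in WT and fell 1.5-fold in both knockouts, and 14 did the reverse.

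Across 9462 genes of at least 10 CPM the changes of WT had a Pearson correlation of 0.348 with those of Per1KO and 0.414 with those of Per2KO, while those of the knockouts with each other gave 0.883. These are correlations across genes, which are not independent replicates, and each pair of genotypes compared shares no library but the knockouts share their depth. Among the 2420 genes with at least 100 CPM, where counting error is small in WT too, the values were 0.340, 0.428 and 0.926. Of the 548 genes that changed 2-fold in WT, 77.7% had the same sign in Per1KO and 82.7% in Per2KO. Of the 261 that changed 2-fold in Per1KO, 99.2% had the same sign in Per2KO.

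**Figure D5:**
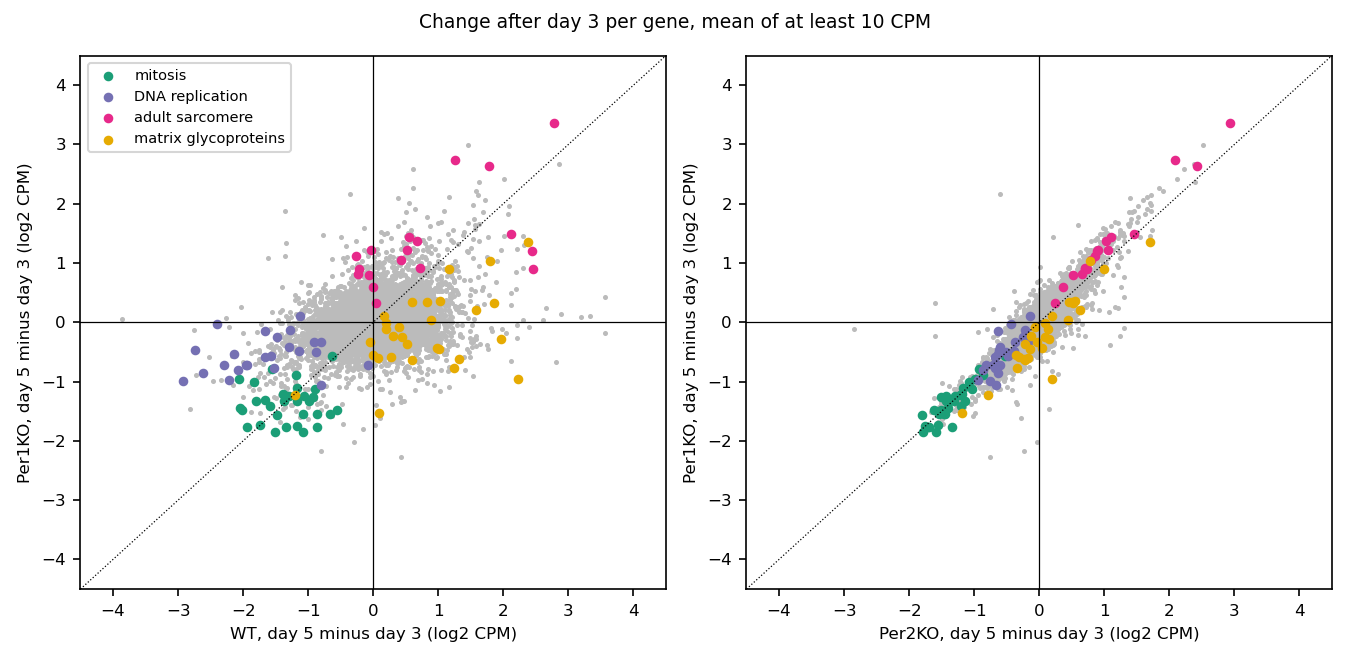
Change from day 3 to day 5 per gene (log2 CPM on both axes) for 9462 genes of at least 10 CPM, Per1KO against WT (left) and Per1KO against Per2KO (right), with 4 gene lists coloured and a dotted line of equal change. The points are scattered on the left (Pearson 0.348) and lie along the line on the right (0.883); matrix glycoproteins extend to the right in WT and replication genes to the left.

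WT also turned back more often. Of genes that rose 2-fold in WT before day 3, 31.3% kept rising, 53.0% held and 15.7% reversed, against 30.98%, 62.3% and 6.69% in Per1KO and 27.3%, 69.0% and 3.71% in Per2KO. Of those that fell, 31.6% reversed in WT, 5.34% in Per1KO and 7.81% in Per2KO. At a mean of at least 100 CPM the reversals after a rise were 4.84%, 3.06% and 1.00%, and after a fall 10.1%, 2.75% and 4.5045%. The gap between WT and the knockouts was thus narrower among abundant genes, and the part that the lower depth of WT had in it was not tested. Of the 382 rises without a common class, the knockouts did the same and WT differed in 239. In 118 of those WT held while both knockouts kept rising, and in 61 WT kept rising while both knockouts held.

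A test of the difference itself, knockout change minus WT change, had 1 residual degree of freedom and took its spread from the knockout pairs, which are deep and alike. It called 1446 genes with a higher change in the knockouts (11.2%) and 1463 with a lower one (11.3%). A fit to all 9 libraries with the same contrast called none (1516 higher and 1417 lower at an unadjusted p under 0.05), and DESeq2 called 627 and 665. The calls below are therefore descriptions of 1 WT pair against 2 knockout pairs. Beside them stand the summed fibroblast and reserve-cell markers given above. The sums were higher in WT, but not every fibroblast marker was, and the longer fibroblast list was at a similar level in the 3 genotypes. The part of these cell types in the differences was not tested.

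Matrix genes had higher changes in WT than in the knockouts. On the list of matrix glycoproteins WT changed above both knockouts in 27 of 30 members. Of the 30, 21 were called lower in the knockouts and none higher, against 11.3% and 11.2% of all tested genes. For this and the other lists, the share of all genes with WT above or below both knockouts is not given here. The list summed to 29516 and 53306 CPM on days 3 and 5 in WT, to 26029 and 22056 in Per1KO and to 24328 and 24759 in Per2KO. Fibronectin (Fn1) changed by 1.31 in WT, -0.62 in Per1KO and -0.23 in Per2KO, and thrombospondin 1 (Thbs1) by 1.85, 0.33 and 0.53. Postn, a matrix protein of fibroblasts and growing tissue, rose in all 3: from 134 to 693 CPM in WT, from 26.3 to 67.4 in Per1KO and from 21.97 to 71.8 in Per2KO (adjusted p = 0.0182). Cilp, a protein of cartilage and fibroblast matrix, was at 300 and 1399 CPM in WT and between 1.82 and 3.597 CPM in the knockouts. Collagens showed the same order, with WT above both knockouts in 21 of 25 members and 11 called lower in the knockouts. Col1a1 changed by 1.08 in WT, -0.03 in Per1KO and 0.65 in Per2KO, and its difference was not called.

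The single genes with the largest difference were of low to middle level. Adamts16, a secreted metalloprotease, went from 18.8 to 132 CPM in WT, from 1.59 to 0.983 in Per1KO and from 1.69 to 1.43 in Per2KO. The ferritin receptor Scara5 went from 5.83 to 53.8 CPM in WT, from 6.90 to 7.32 in Per1KO and from 6.03 to 7.51 in Per2KO, so the genotypes were alike on day 3 and apart on day 5. In the other direction Nmrk2, a muscle kinase of NAD synthesis, went from 14.2 to 5.49 CPM in WT, from 5.58 to 20.7 in Per1KO and from 4.24 to 14.0 in Per2KO. Mss51, a muscle factor of mitochondrial metabolism, went from 30.6 to 12.1, from 5.91 to 15.0 and from 5.58 to 11.0 CPM. Smim5 went from 36.6 to 11.9, from 10.9 to 23.2 and from 9.63 to 17.4 CPM. For Nmrk2 and Smim5 WT was highest on day 3 and lowest on day 5. For Mss51 WT was highest on day 3 and lay between the knockouts on day 5.

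Sarcomere, glycolysis and oxidative genes stood the other way from the matrix. The calcium and fusion lists also had more members called higher than lower in the knockouts. The titin and Z-disc, nerve-muscle junction and myogenic factor lists had more called lower. Among all tested genes 11.2% were called higher and 11.3% lower. On the adult sarcomere list WT changed below both knockouts in 14 of 19 members, with 11 called higher and 3 lower in the knockouts. Myoglobin (Mb) changed by 0.61 in WT, 2.59 in Per1KO and 2.22 in Per2KO, and slow troponin I (Tnni1) by 0.02, 1.10 and 0.97. WT had started higher: the adult list summed to 20630 CPM on day 3 and 21064 on day 5 in WT, to 10352 and 19319 in Per1KO and to 9505 and 15266 in Per2KO. The exceptions were myosin heavy chains, with larger rises in WT for Myh1 (2.44 against 1.21 and 0.89), Myh2 (2.46 against 0.91 and 0.73) and Myh7 (2.13 against 1.49 and 1.45). On the glycolysis list 16 of 23 members were called higher in the knockouts and none lower, and on the oxidative list 13 of 28 were higher and 2 lower. Lactate dehydrogenase Ldha changed by -1.15 in WT, -0.05 in Per1KO and -0.07 in Per2KO, and brain creatine kinase Ckb by -1.56, 0.17 and 0.25. On the developmental sarcomere list 8 of 14 members were called higher in the knockouts and 2 lower. WT changed below both knockouts in 10 of the 14. The calcium and excitation list had 6 of 25 higher and 1 lower, and the fusion list 7 of 23 higher and 3 lower. On the titin and Z-disc list 4 members were called higher in the knockouts and 8 lower. The nerve-muscle junction list had 2 and 4, and the myogenic factors 2 and 5. The median difference, knockouts minus WT, was 0.14 on the titin and Z-disc list and 0.04 on the fusion list. Calls and medians thus order these lists differently. Of the 13 mitochondrial messages WT changed above both knockouts in 10.

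Per1KO and Per2KO differed little from each other after day 3. Their changes differed by 2-fold or more in 88 of 12918 genes (0.681%), 37 with the higher change in Per1KO and 51 in Per2KO, and with 1 library per knockout and day there is no test of any of them. Over all 12918 genes the median difference, Per1KO minus Per2KO, was 0.011, and the share with Per1KO above is not given here. The change of Per1KO was above that of Per2KO in 19 of 19 adult sarcomere genes, with a median difference of 0.25. The same held in 12 of 14 developmental sarcomere genes, 20 of 24 titin and Z-disc genes and 22 of 25 calcium and excitation genes. Other muscle lists were more even, with 5 of 11 nerve-muscle junction genes, 8 of 16 myogenic factors and 13 of 23 fusion genes. On the matrix glycoprotein list it was above in 1 of 30 (median -0.28). Of genes with a mean of 10 CPM or more over the 6 libraries, WT included, Per1KO was furthest above Per2KO for Dhrs7c, a reductase of the sarcoplasmic reticulum (3.37 to 14.7 CPM against 3.02 to 8.05), Igfn1 (3.80 to 12.04 against 3.80 to 5.79) and Tm6sf1 (7.75 to 14.9 against 8.51 to 8.56). It was furthest below for the growth factor Ptn (7.86 to 1.58 CPM against 7.56 to 4.47), the transporter Slc6a2 (2.13 to 1.99 against 2.36 to 5.88) and the lipoprotein receptor Vldlr (1.43 to 1.08 against 1.53 to 3.33). For each of these 6 the knockouts were alike on day 3. Ptn, Slc6a2 and Vldlr reached that mean through WT and were below 10 CPM in all 4 knockout libraries.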

How the data were processed

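The authors deposited 1 table of raw gene counts for 9 libraries. Per the submitters' processing notes it came from reads handled with CASAVA 1.8 and HISAT2 2.1.0 on mm10. The counting program, annotation, strand setting and treatment of multiply mapped reads are not given in the sources used here. Of 47729 genes, 12920 reached 1 CPM in 3 or more of the 6 day 3 and day 5 libraries and were tested with edgeR 4.0.16 (R 4.3.3) by the quasi-likelihood test on the deposited counts, with terms for genotype and day, 2 residual degrees of freedom, scaling factors (TMM) over all 9 libraries and Benjamini-Hochberg adjustment. CPM are counts per 1000000 counts after that scaling. Pair differences are log2 CPM with a prior count of 2. Gene positions and shared 31-base words come from GENCODE M21 on GRCm38, the same assembly as mm10, and promoters from RefSeq. Fewer than 10% shared words counted as little shared. Trajectory classes used the 13324 genes that reached 1 CPM in 3 or more of all 9 libraries. Test scripts were tested on simulated data. Depth limits WT most, and intervals or limits from counts cover counting error only. P-values measure the spread between the 3 genotypes, not between cultures of 1 genotype. The 32 gene lists, the rules for named genes and the comparison itself were chosen with earlier results of these data known. Besides the 12 largest rises and 12 largest falls (mean of at least 10 CPM), named genes were 18 fixed ones, the member of each list with the largest rise and fall common to all 3 genotypes, the 6 a direction with the largest called knockout difference, the 3 of highest mean CPM in each trajectory class and the 3 a direction with the largest difference between the knockouts. Other genes named are list members, chosen as examples after their values were seen. Alternatives were the DESeq2 1.42.0 Wald test and size factors, other filters, a 9-library model, no genotype term and each genotype pair left out. Some genes that meet these rules are not reported here.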

Additional observations from a re-analysis of the deposited data

Results flagged for a closer look

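The change from day 3 to day 5 differed between the knockouts and WT for 42 named genes by the test of the difference (knockouts minus WT, log2, edgeR, adjusted p under 0.05). None of the 42 was called by the 9-library fit, where their adjusted p was 0.0654 or higher, and with 1 WT library per day these differences cannot be told apart from depth or lane.

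Matrix, secreted and stromal genes had the lower change in the knockouts: Adamts16 by -3.26, Scara5 by -3.01, C1rl by -2.67, Cilp by -2.66, Gxylt2 by -2.43, Adh1 by -2.42, Postn by -0.84 and Ltbp1 by -0.34. The same held for the folate enzyme Aldh1l2 (-1.09), the kinesin Kif2c (-0.87), Per2 (-0.81) and Ptgs1 (-0.53). Among the myosins it held for Myh2 (-1.64), Myh1 (-1.38), Myh8 (-1.34) and Myh7 (-0.65). Ifit3 gave -8.53, but WT had 0 counts on day 3 and 13 on day 5, so this fitted value is no bound.

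Some cell cycle genes had the higher change in the knockouts, since WT fell more: Mcm3 by 2.21, Mcm5 by 2.06, Rbl1 by 1.18 and Cdk1 by 1.09. So did Hey1 (1.82), Ddit4 (0.83), Plau (0.70), Igfbp2 (0.69), Vgll2 (0.64), Cd44 (0.44) and B2m (0.35). The mitosis list as a whole did not, with 2 of 34 members called higher in the knockouts and 3 lower.

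Muscle and metabolic genes with the higher change in the knockouts were Nmrk2 (3.19), Smim5 (2.60), Mss51 (2.51), Dhrs7c (1.42), Fxyd6 (1.31), Ckm (1.27), Mymk (0.86), Myh4 (0.76), Idh2 (0.70), Cdkn1a (0.52), Slc6a6 (0.50) and Myl4 (0.45). Nefl (2.37) and Macc1 (2.27) belonged to none of these groups. WT moved one way and both knockouts the other for Adamts16, Cdkn1a, Macc1, Mss51, Mymk, Nefl, Nmrk2, Ptgs1, Slc6a6 and Smim5.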

How the results depend on the processing

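The counts of 303 genes higher and 257 lower on day 5 moved with the test, the filter, the model and the pairs used. The DESeq2 Wald test gave 1294 and 1192, no filter on low counts 592 and 446, a filter of at least 10 CPM in at least 3 libraries 173 and 152, the additive model of all 9 libraries 93 and 145, and no genotype term 0 and 0. Leaving out 1 genotype pair gave 126 to 2608 higher and 104 to 2594 lower. DESeq2 size factors, unambiguous protein-coding genes alone and scaling over the 6 libraries (chosen after seeing the data) stayed within 1.5 times. Of the 93 and 145 calls of the 9-library model, 91 and 145 were among the main calls.

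Of 124 named genes tested, 18 lost a call in the 9-library model, 58 without the genotype term, 14 without Per1KO and 12 without Per2KO, and 46 gained one without WT and 31 with DESeq2. No named gene changed direction with a call.

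For knockout minus WT changes, DESeq2 gave 627 higher and 665 lower and the 9-library model 0 and 0. Leaving out a knockout leaves no residual degree of freedom and was not run. No paired analysis with a replicate block was possible because each genotype and day has 1 library; the genotype term is the pairing.

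With a 2-fold step, 53 genes kept rising, 374 held after a rise and 0 reversed, and 56 kept falling, 158 held and 0 reversed. With both knockouts only, 341 kept rising, 665 held and 30 reversed after a rise, and 213, 421 and 24 after a fall. At least 10 CPM gave 98 that kept rising and 1 reversed rise, and a prior count of 10 gave 1 reversed rise. The cause of these shifts was not tested.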
